A study of Mus musculus with 6 samples.

Results

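Cytokine receptors without kinase activity of their own signal through Janus kinases (JAKs), which phosphorylate STAT transcription factors. Suppressors of cytokine signalling (SOCS proteins and CIS, encoded by Cish) are induced by STATs and close a feedback loop on receptors and JAKs. PIAS proteins are SUMO ligases that restrain STATs in the nucleus, and several protein tyrosine phosphatases remove the phosphate from receptors, JAKs and STATs. In dendritic cells, the antigen-presenting cells studied here, these brakes limit responses to interferons and to growth factors such as GM-CSF.

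The 10 genes described here are 4 SOCS family genes (Socs1, Socs2, Socs3 and Cish), 2 PIAS genes (Pias1 and Pias3) and 4 phosphatase genes (Ptpn1, Ptpn2, Ptpn6 and Ptpn11), taken by symbol from the 23420 genes counted. RNA was sequenced from dendritic cells freshly isolated from mouse spleen, from 3 samples of a group called TBK1-DKO and 3 of a group called WT (wild type). All 6 samples were given as strain C57BL/6, with an age of 10 weeks in the sample characteristics and 8 weeks in the protocol. TBK1 is a kinase that activates interferon regulatory factors downstream of nucleic acid sensors. The sources used here do not spell out the abbreviation DKO, nor do they give the alleles, any Cre driver, the sorting of the cells or whether libraries came from separate animals. The p-values thus measure the spread between these libraries, which may be technical.

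Reads in genes numbered 45018389 to 47349648 in the TBK1-DKO libraries and 31077585 to 36145508 in the WT libraries. Libraries TBK1-DKO 2 and WT 1 stood apart from the others of their groups. The chi-square per degree of freedom over genes was 38.3 between TBK1-DKO 2 and either of the other TBK1-DKO libraries, and 13.0 and 14.5 between WT 1 and the other WT libraries, against 2.47 and 2.62 for the remaining pairs. Levels are given as CPM, counts per 1000000 reads in genes after each library's total was multiplied by its scaling factor (TMM). Tbk1 averaged 82.2 ± 2.69 CPM (SD, n = 3) in TBK1-DKO and 85.0 ± 5.08 CPM in WT, so its total count did not separate the labels. A count over the whole gene cannot show the loss of part of it. Itgax, the CD11c gene used to define dendritic cells, ranged from 333 to 353 CPM in TBK1-DKO libraries, against 381 to 410 CPM in WT libraries. Flt3, the receptor for a dendritic cell growth factor, ranged from 147 to 153 CPM in TBK1-DKO libraries, against 146 to 150 CPM in WT libraries.

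Sequences upstream of the RefSeq starts of Socs1 and Socs3 and at that of Cish are shown first. The reason is that these genes are induced by STATs and interferon regulatory factors, whose recognition letters can be searched for. The windows come from RefSeq (GRCm38.p6, the assembly of mm10) and run from 250 bases before to 50 bases after each gene's start, and 8 of the 10 genes were in that table (all but Socs2 and Ptpn2). Capitals mark every match, on either strand, to the STAT letters TTCNNNGAA, the STAT6 letters TTCNNNNGAA or the interferon regulatory factor letters GAAANNGAAA. The first was found in 8.30% of 32851 such windows of mouse genes, the second in 6.95% and the third in 3.44%. The Socs1 stretch, chr16:10785537-10785696 on the minus strand, lies directly upstream of the RefSeq start and in no exon of Socs1 in GENCODE M21. The Socs3 stretch, chr11:117969501-117969530 on the minus strand, lies upstream of the RefSeq start and outside the exons of its gene. It is inside the gene as GENCODE places it (chr11:117966079-117970047, minus strand), which starts further upstream. The Cish stretch, chr9:107296654-107296683 on the plus strand, spans the RefSeq start and lies inside an exon of a GENCODE transcript that starts further upstream.
Socs1: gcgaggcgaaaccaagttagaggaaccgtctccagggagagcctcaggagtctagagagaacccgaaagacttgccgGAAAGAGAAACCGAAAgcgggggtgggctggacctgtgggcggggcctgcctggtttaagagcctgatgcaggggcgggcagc
Socs3: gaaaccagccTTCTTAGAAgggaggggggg
Cish: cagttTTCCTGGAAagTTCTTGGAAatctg

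Socs1 held 2 overlapping matches to the interferon regulatory factor letters, at 83 to 74 and 77 to 68 bases before its start. Cish held 2 matches to the STAT letters, at bases 1 to 9 and 12 to 20 counted from its RefSeq start. Socs3 held 1, at 154 to 146 bases before its RefSeq start. No match lay in the windows of Pias1, Pias3, Ptpn1, Ptpn6 and Ptpn11. A match describes letters and is not evidence of binding.

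In TBK1-DKO dendritic cells the RNA of Socs1 and Socs2 rose, by 1.64-fold and 1.41-fold. The other 8 brake genes, among them Socs3, Cish, both PIAS genes and all 4 phosphatase genes, were not called. In such bulk RNA, a change in the share of cells that express a gene and a change in RNA per cell cannot be told apart. A gene was called where its adjusted p lay under 0.05. Here p-values come from the quasi-likelihood test of edgeR, corrected across the 14388 tested genes by the method of Benjamini and Hochberg. The 10 brake genes were all abundant enough to be tested. Thus 2 of 10 were called up and 0 down (DESeq2 and limma-voom gave the same counts, and at an unadjusted p under 0.05 there were 3 up and 0 down), where 23.6% of all genes tested were called, 13.7% up and 9.90% down. The share of brake genes called was therefore close to that of genes at large. The median log2 fold change of the 10 genes was 0.06, against 0.00 over all genes tested, and the median size of a change was 0.08 over the 10 genes, against 0.15 over all genes tested.

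Groups of libraries did not overlap for 5 of the 10 genes, Socs1, Socs2, Socs3, Cish and Ptpn11, each higher in TBK1-DKO. Over all genes tested the groups did not overlap in 41.1%, with 21.5% higher and 19.5% lower in TBK1-DKO. The share among the 10 genes was therefore near that of genes at large. Non-overlap held for the 4 SOCS family genes described here, for 1 of the 4 phosphatase genes and for neither PIAS gene. It was not a trait of the wider SOCS family. Socs5 did not overlap either but was lower in TBK1-DKO, and Socs4, Socs6 and Socs7 overlapped.

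**Figure D1:**
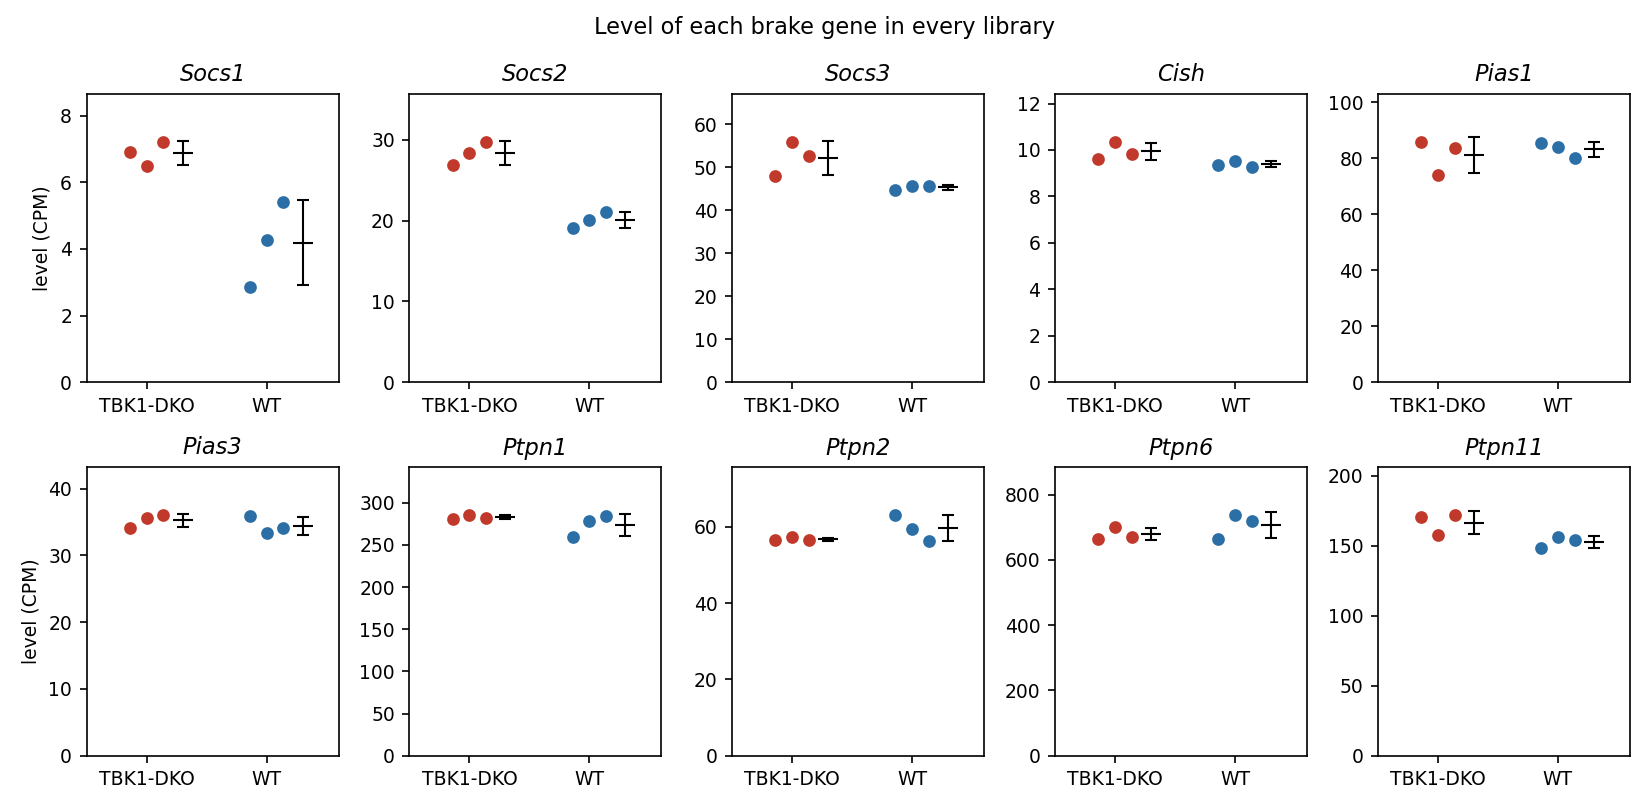
Each panel plots the level of 1 gene in CPM (vertical axis, from 0) in the 3 TBK1-DKO and 3 WT libraries (points, in the order 1, 2, 3), with the mean and SD (bar). Socs2 stands clearly higher in TBK1-DKO. Socs1 stands higher too, but by less than the spread of its WT points. Socs3, Cish and Ptpn11 are higher by small margins, and the points of the other 5 genes overlap.

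Among the SOCS family genes, Socs1 encodes an inhibitor that blocks the kinase domain of JAKs and is known as a brake on interferon signalling. It measured 6.90, 6.50 and 7.22 CPM in TBK1-DKO 1, 2 and 3, against 2.86, 4.28 and 5.41 CPM in WT 1, 2 and 3. The TBK1-DKO libraries lay close together and all above WT, while the WT libraries spread widely. Means were 6.87 ± 0.36 CPM in TBK1-DKO and 4.18 ± 1.28 CPM in WT (SD, n = 3 each). The log2 fold change was 0.71 (SE 0.18, 95% interval 0.31 to 1.11, adjusted p = 0.016, edgeR). This gene had the fewest reads of the 10, with 296 to 326 per TBK1-DKO library and 90 to 182 per WT library. Without WT replicate 2 the call was lost at a nearly equal fold change, 0.71 with adjusted p = 0.062. Without WT replicate 1, the lowest library, the log2 fold change was 0.51 and the call held (adjusted p = 0.022).

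Socs2 encodes a suppressor best known as a brake on growth hormone receptor signalling. It had 26.8, 28.4 and 29.8 CPM in TBK1-DKO 1, 2 and 3, and 19.0, 20.1 and 21.1 CPM in WT 1, 2 and 3. Every TBK1-DKO library exceeded every WT library, and the gap was larger than the range within either group. The fitted change of 0.50 on the log2 scale (SE 0.07, 95% interval 0.34 to 0.66) had an adjusted p of 0.00066, the smallest among the 10 genes by edgeR. The call held under every one of the 17 alternative settings run, with log2 fold changes of 0.45 to 0.54. Socs2 (chr10:95385362-95417180, minus strand) lies on the chromosome of Tbk1, 26.1 Mb away. Of the 10 other tested genes within 1 Mb of Socs2, 2 rose and 1 fell, and of the 19 within 1 Mb of Socs1 (chr16:10782240-10785536, minus strand) 5 rose and 0 fell. The shares called, 30% near Socs2 and 26.3% near Socs1, were near the 23.6% of all genes tested.

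Socs3 encodes the inhibitor of receptors that signal through gp130 and of the G-CSF receptor. It had 47.9, 56.0 and 52.5 CPM in TBK1-DKO 1, 2 and 3, and 44.7, 45.7 and 45.6 CPM in WT 1, 2 and 3. The lowest TBK1-DKO library stood only just above the highest WT library. The log2 fold change was 0.20 (SE 0.07, 95% interval 0.05 to 0.35), and it missed the threshold at adjusted p = 0.054 (edgeR). Without TBK1-DKO replicate 1 it was called (log2 fold change 0.26, adjusted p = 0.032), and without TBK1-DKO replicate 2, its highest library, the log2 fold change was 0.13 and the adjusted p 0.12. With offsets for gene length and GC content it was 0.12 (adjusted p = 0.079, edgeR).

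Cish encodes CIS, a STAT5-induced protein that binds receptors of the interleukin-2 and GM-CSF families. It measured 9.60, 10.4 and 9.84 CPM in TBK1-DKO, against 9.35, 9.52 and 9.28 CPM in WT, in the order of libraries 1, 2 and 3. The groups did not overlap, but the TBK1-DKO minimum exceeded the WT maximum by less than the range within TBK1-DKO. The log2 fold change was 0.08 (95% interval -0.09 to 0.26, adjusted p = 0.50, edgeR), an interval that allows at most a 1.19-fold rise. Cish thus had a narrow upper bound, whereas for Socs1 the interval reached from 1.24-fold to 2.15-fold. Reads of a strand-blind library over Cish may include those of 2 antisense transcripts that GENCODE places over its exons, and the strand setting is not given in the sources used here.

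Of the PIAS genes, Pias1 encodes a SUMO ligase that restrains activated STATs, and Pias3 encodes the inhibitor of activated STAT3. Pias1 had 85.9, 74.0 and 83.6 CPM in TBK1-DKO 1, 2 and 3, and 85.5, 83.9 and 80.1 CPM in WT 1, 2 and 3. TBK1-DKO 2 was the lowest of the 6 and the others overlapped. Pias3 had 34.2, 35.6 and 36.0 CPM in TBK1-DKO and 35.8, 33.3 and 34.1 CPM in WT, likewise overlapping. The log2 fold changes were -0.04 (95% interval -0.18 to 0.11) for Pias1 and 0.04 (95% interval -0.10 to 0.17) for Pias3. Their adjusted p-values were 0.76 and 0.73 by edgeR, and the sign of each changed between settings, so neither has a direction in these data.

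**Figure D2:**
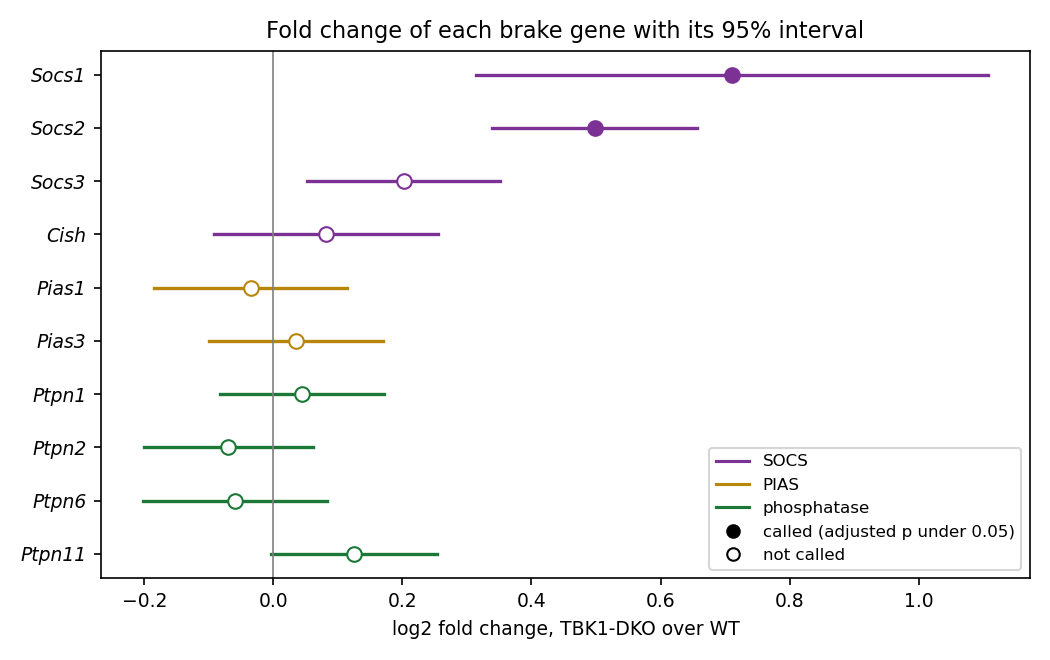
Log2 fold change of TBK1-DKO over WT (horizontal axis) for the 10 brake genes, with the 95% interval as a line, coloured by family and filled where called. The intervals of Socs1, Socs2 and Socs3 lie above 0, with 0.05 as the lower bound of Socs3, and those of the other 7 genes include 0.

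Of the 4 phosphatase genes, 0 were called in either direction, by edgeR, DESeq2 or limma-voom, and 0 had an unadjusted p under 0.05. Ptpn6 encodes SHP-1, the phosphatase of blood cells that inhibitory receptors recruit. It measured 665, 700 and 671 CPM in TBK1-DKO 1, 2 and 3, against 664, 737 and 720 CPM in WT 1, 2 and 3. WT 1 was as low as the lowest TBK1-DKO library, so the groups overlapped. An antisense transcript that GENCODE places over exons of Ptpn6 may add reads to its count. Ptpn1 encodes PTP1B, which dephosphorylates JAK2 and TYK2, and it had 280.5, 285 and 282 CPM in TBK1-DKO 1, 2 and 3, and 259, 279 and 284 CPM in WT 1, 2 and 3, with WT 1 the lowest. Ptpn2 encodes TC-PTP, which acts on JAK1, JAK3 and nuclear STATs, and it had 56.6, 57.3 and 56.6 CPM in TBK1-DKO 1, 2 and 3, and 63.1, 59.5 and 56.3 CPM in WT 1, 2 and 3. Both genes overlapped between groups and varied less within TBK1-DKO than within WT. The log2 fold changes were -0.06 for Ptpn6 (95% interval -0.20 to 0.08), 0.04 for Ptpn1 (-0.08 to 0.17) and -0.07 for Ptpn2 (-0.20 to 0.06). None of these 3 genes was called (adjusted p = 0.56, 0.63 and 0.45 in that order, edgeR), and all 3 intervals lie between 0.87-fold and 1.13-fold.

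Ptpn11 encodes SHP-2, which promotes Ras signalling from growth factor receptors and also dephosphorylates STATs. It had 170, 157 and 172 CPM in TBK1-DKO 1, 2 and 3, and 148, 156 and 154 CPM in WT 1, 2 and 3. TBK1-DKO 2 stood only just above the WT libraries, and the other TBK1-DKO libraries stood well above them. The log2 fold change of 0.13 (SE 0.06), with a 95% interval from just below 0 to 0.25, was not called (adjusted p = 0.15, edgeR). Without TBK1-DKO replicate 2 it was 0.14 and called (adjusted p = 0.034), and likewise with offsets for gene length and GC content (0.13, adjusted p = 0.023, edgeR).

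With the libraries that stood apart left out, TBK1-DKO 1 and 3 against WT 2 and 3, 5 of the 10 genes were called, where 47.7% of 14456 genes tested were. Socs1 (log2 fold change 0.54, adjusted p = 0.00011), Socs2 (0.45, adjusted p = 9.8e-09), Socs3 (0.13, adjusted p = 0.019) and Ptpn11 (0.13, adjusted p = 0.00022) were higher by edgeR. Ptpn6 was lower there, at -0.14 (adjusted p = 9.0e-06), but was not called with all libraries (-0.06, adjusted p = 0.56, edgeR). Socs1 and Socs2 again had the largest changes of the 10 genes. The SE of Ptpn11 was 0.03 there, against 0.06 with all libraries, and that of Ptpn6 likewise 0.03 against 0.06. The libraries kept were those most alike within their groups, so the spread is understated there. The adjusted p-values and the number of calls in this setting cannot be taken at face value.

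**Figure D3:**
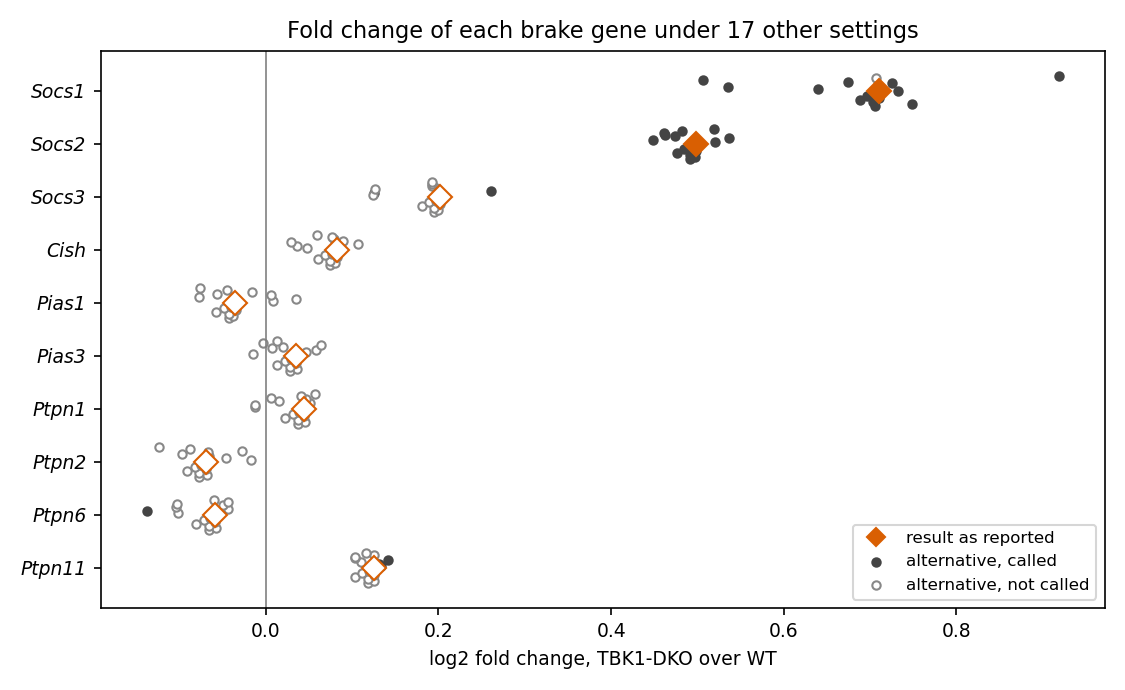
Log2 fold change of TBK1-DKO over WT (horizontal axis) for each brake gene, as reported (diamond) and under the 17 alternative settings (circles, filled where called). Socs2 was called under all 17 and Socs1 under 16, while the values of Pias1, Pias3 and Ptpn1 lie on both sides of 0.

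Levels can be compared between genes only per length, here as CPM per kilobase of all exons of a gene in GENCODE M21. On this scale Ptpn6 was highest, at 242 ± 6.77 in TBK1-DKO and 252 ± 13.7 in WT (SD, n = 3 each), followed by Ptpn1 at 51.1 ± 0.44 in TBK1-DKO and 49.5 ± 2.35 in WT. Ptpn11 (22.2 in TBK1-DKO, 20.4 in WT), Ptpn2 (18.2 in TBK1-DKO, 19.1 in WT) and Socs3 (18.04 in TBK1-DKO, 15.67 in WT) came next. The ranges of Ptpn2 and Socs3 overlapped in TBK1-DKO, and those of Ptpn11 and Ptpn2 in WT, so neither pair has a firm order. Pias1 (11.9 in TBK1-DKO, 12.2 in WT) and Pias3 (9.0 in TBK1-DKO, 8.78 in WT) followed, each apart from its neighbours in both groups. Socs2 (2.97 in TBK1-DKO, 2.10 in WT), Socs1 (2.36 in TBK1-DKO, 1.44 in WT) and Cish (1.55 in TBK1-DKO, 1.46 in WT) were lowest. On this scale the Socs1 range included that of Cish in WT and lay above it in TBK1-DKO. The exons of Socs2 sum to 9531 bases over all isoforms, against a median coding transcript of 948 bases. With median coding transcript lengths most of the order changed in both groups, and only Ptpn6 and Ptpn1 kept ranks 1 and 2 in both. In TBK1-DKO, Socs2 was then at rank 6 in place of 8, Pias1 at 4 in place of 6, Ptpn11 at 5 in place of 3 and Socs3 at 7 in place of 5. Cish then stood above Socs1 in TBK1-DKO, at 3.62 against 2.41 CPM per kilobase, so the order of these genes depends on the length used.

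**Figure D4:**
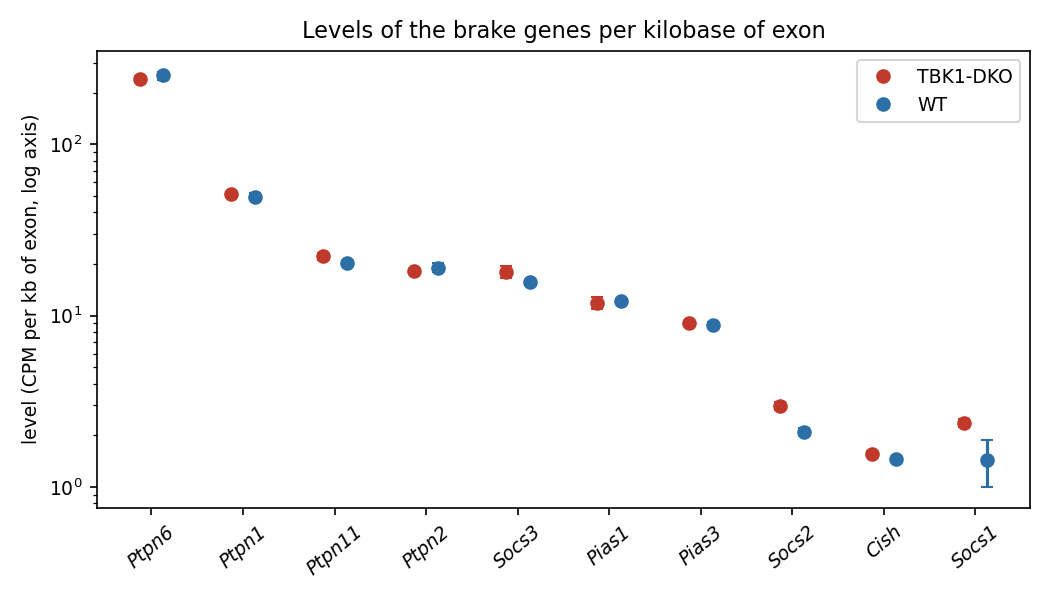
Mean level per kilobase of exon (vertical log axis, CPM per kb) of each brake gene in TBK1-DKO and WT, with SD as error bars (n = 3 each), in the order of the WT means. Ptpn6 is at 242 in TBK1-DKO and 252 in WT, and Socs1 at 2.36 in TBK1-DKO and 1.44 in WT.

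The genes whose profiles over the 6 libraries were most like those of Socs1 and Socs2 were sought among 10710 genes of at least 5 CPM. The measure was the root mean square difference of log2 CPM after each gene's mean was removed. For Socs2 the nearest were Nlrx1 (0.02), Fam210b (0.04) and Papd7 (0.04). For Socs1 they were H2afx (0.12), Dscaml1 (0.13) and Ankrd9 (0.14). These genes had log2 fold changes of 0.51 to 0.55 for Socs2 and 0.53 to 0.82 for Socs1. Fold changes near those of Socs2 and Socs1 follow from the way the genes were picked.

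Marker lists of dendritic cells, other cell types and cell states were read in the same libraries, and most of them differed between groups. Each is given as called genes and as the summed CPM of the list. Over all genes tested, 13.7% were called up and 9.90% down. These lists too were chosen with earlier results of these data known. Neutrophil markers rose in 12 of 12 tested genes (6378 to 7319 in TBK1-DKO, 2750 to 3032 in WT), and erythroid markers in 8 of 8 (3084 to 3246 in TBK1-DKO, 1813 to 2035 in WT). The neutrophil marker Csf3r (log2 fold change 0.17, adjusted p = 0.047, edgeR) was called under only 9 of the 17 alternatives. It also counts among the receptors that signal through JAKs below. Cell cycle genes rose in 10 of 10 (1959 to 2322 in TBK1-DKO, 1176 to 1400 in WT), and plasma cell markers in 7 of 8 (2160 to 2336 in TBK1-DKO, 1400 to 1560 in WT). Markers of mast cells and basophils rose in 6 of 6 (146 to 156 in TBK1-DKO, 103 to 112 in WT), and of mature dendritic cells in 5 of 6 (622 to 693 in TBK1-DKO, 396 to 444 in WT). Other lists fell. Macrophage and monocyte markers fell in 9 of 12 with 1 rise (4422 to 4787 in TBK1-DKO, 6146 to 6612 in WT), and NK cell markers in 8 of 9 (243 to 261 in TBK1-DKO, 330 to 370 in WT). T cell markers fell in 6 of 10 (460 to 464 in TBK1-DKO, 514 to 527 in WT), and B cell markers in 4 of 8 (2997 to 3119 in TBK1-DKO, 3560 to 3702 in WT). Markers of type 1 dendritic cells fell in 6 of 7 (807 to 823 in TBK1-DKO, 1039 to 1111 in WT), and of plasmacytoid dendritic cells in 6 of 7 (805 to 823 in TBK1-DKO, 1056 to 1071 in WT). General dendritic cell markers had 1 rise and 2 falls of 9 (12440 to 14100 in TBK1-DKO, 12800 to 14160 in WT), and type 2 dendritic cell markers 3 rises and 2 falls of 8 (1325 to 1367 in TBK1-DKO, 1362 to 1382 in WT). Immediate-early genes, which respond to tissue handling, fell in 8 of 10 (1738 to 1824 in TBK1-DKO, 2459 to 2668 in WT). No marker of these lists was at 0 in all libraries. The part of these shifts in the rises of Socs1 and Socs2 was not tested.

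The genes around the brakes were described through 13 lists of the pathway, 148 tested genes in all, of which 24 rose, 26 fell and 98 were not called. The share called was 33.8%, against 23.6% of all genes tested, and the median log2 fold change was -0.02, against 0.00 over all genes. The lists were chosen with earlier results of these data known, so the higher share is not a result about the pathway. By list the share ran from 0% for the SOCS box partners to 66.7% for the STAT6-linked genes. Of the other SOCS genes (median log2 fold change -0.08), 0 of 4 rose and 1 fell, with the same counts by DESeq2, by limma-voom and at an unadjusted p under 0.05. The gene that fell, Socs5, a suppressor linked to interleukin-4 and EGF receptor signalling, had 34.3 ± 2.27 CPM in TBK1-DKO and 40.9 ± 1.26 CPM in WT (log2 fold change -0.25, adjusted p = 0.021). Its call was lost without TBK1-DKO replicate 3 (adjusted p = 0.059) or WT replicate 1 (adjusted p = 0.055, edgeR). Socs6 (-0.09) and Socs7 (-0.06) were not called. Socs4 (0.02) was not called either, with 33.5, 20.1 and 35.6 CPM in TBK1-DKO 1, 2 and 3 and 27.2 to 31.7 CPM in WT, but without TBK1-DKO replicate 2 it was called higher (log2 fold change 0.22, adjusted p = 0.042, edgeR). Of 6 partners that join the SOCS box to ubiquitin ligases, such as the elongin gene Tceb1 and the cullin gene Cul5, 0 rose and 0 fell by edgeR, DESeq2 or limma-voom (median -0.01, 0 up and 1 down at an unadjusted p under 0.05). Without TBK1-DKO replicate 2, Rnf7, which encodes a RING protein of these ligases, was called lower (-0.29, adjusted p = 0.0036, edgeR). Of 10 genes of the other PIAS proteins and the SUMO pathway, 0 rose and 0 fell by edgeR, DESeq2 or limma-voom (median 0.05, 2 up and 1 down at an unadjusted p under 0.05). Pias4, another PIAS gene, was at 0.16 on the log2 scale. The SUMO gene Sumo3 was called lower without TBK1-DKO replicate 2 (-0.18, adjusted p = 0.016) and without WT replicate 1 (-0.18, adjusted p = 0.039, edgeR).

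Of 12 other non-receptor phosphatase genes (median log2 fold change 0.01), 3 rose and 1 fell. Of the rises, Ptpn3 was called under all 17 alternatives, Ptpn7 under 16 and Ptpn13 under 14. The fall, of Ptpn9, was called under 13. Ptpn3, whose product has a FERM and a PDZ domain, had 23.1, 19.5 and 23.4 CPM in TBK1-DKO 1, 2 and 3 and 16.1, 13.7 and 13.7 CPM in WT 1, 2 and 3, a log2 fold change of 0.60 (SE 0.10). Ptpn22, a phosphatase of lymphocyte receptor signalling, had 136 ± 4.64 CPM in TBK1-DKO and 139 ± 3.59 CPM in WT and was not called. Among 17 other brakes on cytokine signalling (median -0.14), 1 rose by edgeR, Usp18, which restrains the type I interferon receptor. By edgeR 3 fell, all of them dual-specificity phosphatases of MAP kinases (Dusp1, Dusp5 and Dusp6). DESeq2 gave 1 up and 4 down, and limma-voom 1 up and 3 down. The further fall by DESeq2 was the phosphatase gene Ptprc (-0.23, adjusted p = 0.058 by edgeR), called under 7 of the 17 alternatives. Dusp1 fell by 0.46 on the log2 scale (SE 0.05), with 171 ± 4.69 CPM in TBK1-DKO and 235 ± 0.90 CPM in WT. Dusp1 is also an immediate-early gene and counts among the 8 falls of that list above. The Dusp5 and Dusp6 calls did not hold without TBK1-DKO replicate 1 (adjusted p = 0.054 and 0.078), WT replicate 2 (0.063 and 0.074) or WT replicate 3 (0.057 and 0.061, edgeR).

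Receptors that can recruit SHP-1 or SHP-2 changed in both directions, 4 up and 4 down of 18 by edgeR and 3 up and 6 down by DESeq2 (median log2 fold change -0.11 by edgeR), while Ptpn6 and Ptpn11 themselves were not called. Fcrl5, a receptor of B lineage cells, rose by 0.54 (SE 0.07), and Lilrb4, an inhibitory receptor of myeloid cells, by 0.53 (SE 0.07). The other rises were less firm. Cd300lf (0.16, adjusted p = 0.048) was called under 6 of the 17 alternatives, and leaving out any single library ended its call (adjusted p = 0.064 to 0.21, edgeR). Lilra6 (0.24, adjusted p = 0.018), a symbol that may name an activating receptor without such docking, was not called when either of TBK1-DKO replicates 1 and 3, or either of WT replicates 2 and 3, was left out (adjusted p = 0.052, 0.077, 0.088 and 0.10 in that order, edgeR). Those that fell were the collagen receptor gene Lair1 (-0.34), Pecam1 (-0.31), the sialic acid receptor gene Siglece (-0.31) and Fcrl1 (-0.25), another receptor of B cells. Sirpa, the receptor for CD47 and a type 2 dendritic cell marker above, had 823 ± 19.5 CPM in TBK1-DKO and 890 ± 16.5 CPM in WT and was not called (log2 fold change -0.11, adjusted p = 0.20), but was called lower without TBK1-DKO replicate 2 (-0.14, adjusted p = 0.039, edgeR). Of 8 SHP-2 adaptor genes (median -0.09), 0 rose and 2 fell, the insulin receptor substrate genes Irs1 and Irs2. DESeq2 gave 0 up and 1 down, limma-voom 0 up and 2 down, and an unadjusted p under 0.05 held for 0 up and 3 down. Irs2 had 32.7 ± 6.76 CPM in TBK1-DKO and 53.7 ± 3.46 CPM in WT, a log2 fold change of -0.72 (SE 0.13). Irs1 was sparse, with 0.48 ± 0.07 CPM in TBK1-DKO and 0.84 ± 0.12 CPM in WT, and its fall (log2 fold change -0.79) was called under 10 of the 17 alternatives. It was not called by DESeq2 (adjusted p = 0.089), nor by edgeR when either of TBK1-DKO replicates 1 and 2, or either of WT replicates 1 and 3, was left out (adjusted p = 0.096, 0.062, 0.10 and 0.082 in that order, edgeR).

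The kinases and factors that the brakes act on also went both ways, with 2 of 11 up and 2 down (median log2 fold change 0.09). Jak2, a target of SOCS proteins and of PTP1B, had 364, 329 and 365 CPM in TBK1-DKO 1, 2 and 3, against 227, 211 and 207 CPM in WT 1, 2 and 3, without overlap. Stat5a, which relays GM-CSF signals and induces Cish and Socs2, had 81.3, 81.5 and 82.5 CPM in TBK1-DKO and 62.4, 67.8 and 64.5 CPM in WT, a log2 fold change of 0.33 (SE 0.05, adjusted p = 0.0015, edgeR). Its close relative Stat5b, at 161 ± 9.20 CPM in TBK1-DKO and 160 ± 4.34 CPM in WT, was not called. Stat3 (0.11) and Stat6 (-0.09) were not called either. Stat2 (0.19) was not called with all libraries, but was without TBK1-DKO replicate 2 (0.20, adjusted p = 0.021) and without WT replicate 1 (0.25, adjusted p = 0.017, edgeR). Jak1 (-0.20) and Stat4 (-0.23) fell. The Jak1 call was lost without any single library but TBK1-DKO 2 (adjusted p = 0.066 to 0.10), and the Stat4 call without TBK1-DKO replicate 1 or 3 (adjusted p = 0.067 and 0.057, edgeR).

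Receptors that signal through JAKs changed in 15 of 31 tested genes, 7 up and 8 down (median log2 fold change -0.06). The erythropoietin receptor gene Epor, itself on the list of erythroid markers, rose by 0.76 (SE 0.07), and Ifnlr1, the interferon lambda receptor, by 0.72 (SE 0.14), at 6.53 ± 1.12 CPM in TBK1-DKO and 3.96 ± 0.24 CPM in WT. Csf2rb, the signalling chain of the GM-CSF receptor, had 239 ± 3.46 CPM in TBK1-DKO and 201 ± 13.0 CPM in WT. Its call (log2 fold change 0.25) did not hold when TBK1-DKO replicate 1, WT replicate 2 or WT replicate 3 was left out (adjusted p = 0.063, 0.11 and 0.082, edgeR). Those that fell included Il2rb (-0.53), a receptor chain of NK and T cells, Il5ra (-0.37), Il13ra1 (-0.32), Il4ra (-0.27) and Il27ra (-0.26).

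Genes linked to single STATs gave no common direction. Of 7 STAT5-linked genes (median log2 fold change 0.07), 2 rose and 0 fell, also by DESeq2, by limma-voom and at an unadjusted p under 0.05. Among them Bcl2l1, which encodes the survival factor BCL-XL, rose by 0.62 (SE 0.06) and the cyclin gene Ccnd3 by 0.47 (SE 0.07), while Pim1 (-0.02), Osm (0.01) and Myc (-0.01) were not called. Of 7 STAT3-linked genes (median -0.07), Bcl3 and Cebpd rose (0.32 and 0.40) and 0 fell by edgeR, DESeq2 or limma-voom, with 3 up and 1 down at an unadjusted p under 0.05. Without WT replicate 1, the AP-1 factor gene Junb was called lower (-0.37, adjusted p = 0.0041) and the cytokine gene Il10 higher (0.54, adjusted p = 0.042, edgeR), and without TBK1-DKO replicate 2 the survival gene Mcl1 was called lower (-0.17, adjusted p = 0.017). Leaving out WT replicate 2 ended the calls of Bcl3 (adjusted p = 0.071) and Cebpd (0.077), and leaving out TBK1-DKO replicate 1 or 3 ended that of Cebpd (0.055 and 0.088, edgeR). Of 9 STAT6-linked genes (median -0.34), 2 rose and 4 fell. Ccl24 (-2.19), Mrc1 (-0.66) and the factor genes Pparg (-0.45) and Klf4 (-0.34) fell. The chemokine gene Ccl22 (1.56), also a mature dendritic cell marker above, and Chi3l3 (0.99), a chitinase-like gene of myeloid cells, rose. Of the 50 called genes of the 13 lists, 28 were called under all 17 alternatives.

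**Figure D5:**
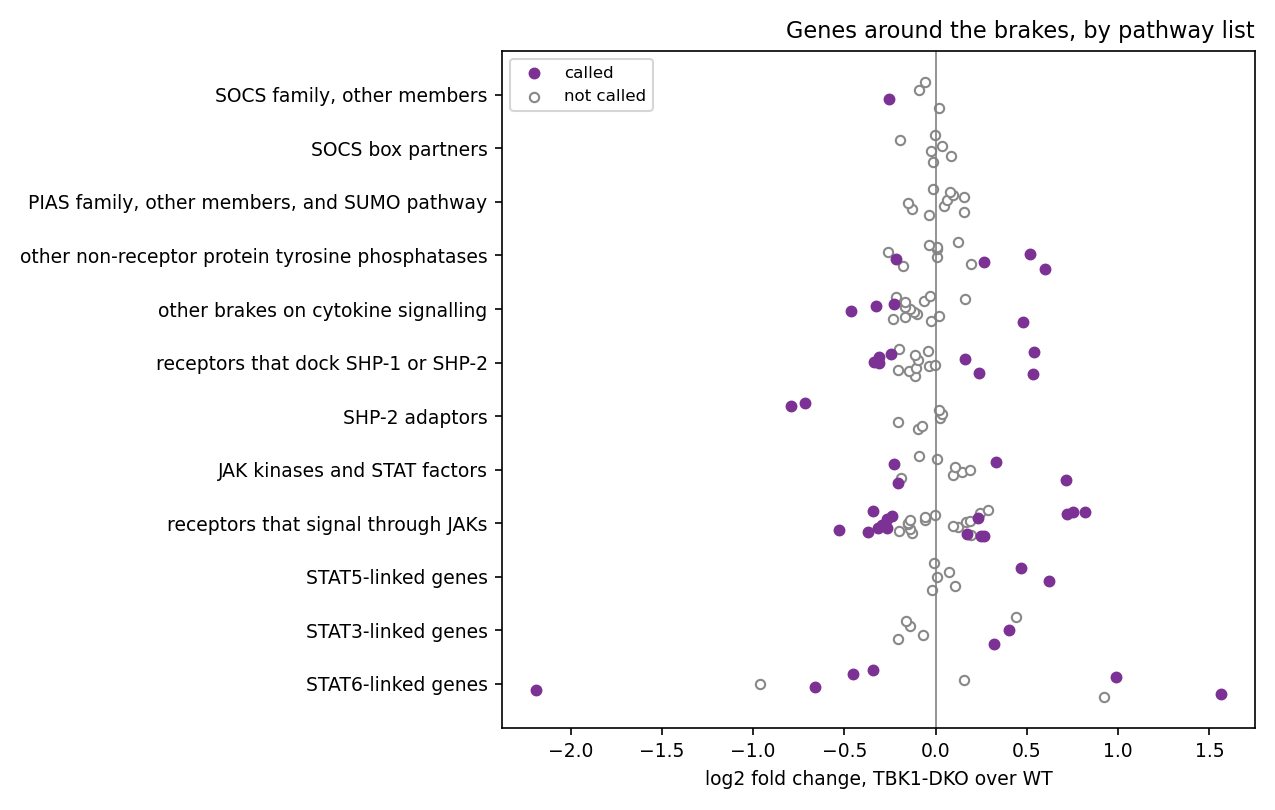
Log2 fold change of TBK1-DKO over WT (horizontal axis) for each tested gene of 12 of the pathway lists (rows), filled where called. Points of the SOCS box partners and of the PIAS and SUMO list are all open, and the STAT6-linked genes spread most widely, between -2.19 and 1.56.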

How the data were processed

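RNA-seq of splenic dendritic cells from 3 TBK1-DKO and 3 WT samples was used as raw read counts per gene, which the authors deposited as whole numbers, 1 file per sample. The submitters' processing notes name build mm10 and the tools HTSeq, TopHat, TopHat2 and DESeq2. Tool versions, the annotation and the strand setting: not given in the sources used here. Summary rows that name no gene held 8.20% to 10.7% of each sample's reads and were left out. The 14388 genes passing filterByExpr (minimum count 10) were scaled by TMM and tested, TBK1-DKO over WT, with the robust quasi-likelihood test of edgeR 4.0.16 in R 4.3.3. P-values were adjusted by Benjamini-Hochberg over all of them, with a threshold of 0.05. Depths were 31077585 to 47349648 reads in genes, and the least abundant of the 10 genes had 90 to 326 reads per sample. Alternatives used DESeq2 1.42.0, limma-voom (limma 3.58.1), other scalings and filters, length and GC offsets, a replicate block and left-out libraries. Symbols matched GENCODE M21 directly for 21777 of 23420 genes and through a synonym for 1278. The naming rule took all 10 genes, called genes of the lists with preference for the smallest p, the 3 genes of nearest profile (mean of at least 5 CPM) and Tbk1. List genes named without a call were chosen after their values were seen. The genes and lists were chosen with earlier results of these data known. The test was also run on simulated counts, with the outcome not given here. Such a run cannot show whether the spread between these libraries is technical. Some genes of the lists, and 1 list, are not reported here by name.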

Additional observations from a re-analysis of the deposited data

How the results depend on the processing

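Of the 10 brake genes, Socs2 was called under all 17 alternative settings and Socs1 under 16, and no call of a brake gene turned its direction. As reported, 3402 genes, 2 brake genes and 50 of the 148 pathway genes were called. With TBK1-DKO 1 and 3 against WT 2 and 3, the libraries most alike within their groups, these counts were 6897, 5 and 97. The choice of libraries by likeness understates the spread in that setting. At an adjusted p under 0.01 they were 1996, 1 and 29, and with length and GC offsets 82 pathway genes were called. Leaving out each library in turn gave 2308 to 4352 genes, 1 to 3 brake genes and 34 to 75 pathway genes. The cause of these shifts was not tested. Deviations from the group means correlated at 0.18, 0.15 and -0.07 between samples of the same replicate number. TBK1-DKO 1 and 2 correlated best with their own number, and TBK1-DKO 3 with WT 1 (0.12). With 3 libraries per group, and TBK1-DKO 2 and WT 1 standing apart, these correlations cannot show whether the replicate numbers pair the samples. With the replicate number as a block, 4086 genes, 3 brake genes and 59 pathway genes were called, Socs3 among them (log2 fold change 0.20, adjusted p = 0.026, edgeR). Socs1 had the fewest reads of the 10 genes, 90 to 326 per library, and its CPM varied with a coefficient of variation of 5.26% in TBK1-DKO and 30.5% in WT. A missed threshold, as for Cish and the PIAS genes, does not show that levels were equal.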
